A study of Mus musculus with 2 samples.

Results

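The 10 snoRNA host genes described here were Gas5, Snhg1, Snhg3, Snhg5, Snhg6, Snhg8, Snhg11, Snhg12, Snhg14 and Snhg20, chosen by symbol from the 55414 genes of the deposited matrices. All 10 were found, and all are annotated as long noncoding RNAs (lncRNAs). They were read in single-nucleus RNA-sequencing of C2C12 nuclei, a line of mouse myoblasts grown in culture, which carried no genetic change in the labels. In the in situ polyadenylated library, yeast poly(A) polymerase (yPAP) was applied to the nuclei to add A tails to free RNA 3′ ends before droplet capture on poly(T) primers. The standard library was captured without that enzyme, and without the warm incubation and later wash that went with it. For tissue sections, the paper reports that the RNase inhibitor used in this step failed to keep longer transcripts intact. Its part in the values below was not tested. There was 1 library of each kind, so the 2 libraries differ by treatment and by every step of preparation, and these cannot be told apart. No test between treatments was possible, and every interval below is a 95% interval that covers counting error only.

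snoRNAs are short nucleolar RNAs that guide chemical modification of other RNAs, mainly ribosomal RNA. Box C/D snoRNAs guide 2′-O-methylation and box H/ACA snoRNAs guide pseudouridylation, while the related scaRNAs act in Cajal bodies. In mammals most are cut out of the introns of a host transcript, and the spliced exons of hosts such as Gas5 code for no conserved protein.

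After the study's filter, over 750 unique molecular identifiers (UMIs) and under 5% mitochondrial UMIs, the in situ polyadenylated library held 1335 nuclei with a median of 1088 UMIs, and the standard library 1123 nuclei with a median of 996 UMIs. These are counts from kallisto, which matches reads to annotated transcripts. A second matrix, from alignment to the genome with STAR, held 3758 and 8226 barcodes past the same limits in its own UMIs. Both numbers exceed the nuclei that the study's methods give as loaded, so not all of these barcodes can be nuclei. Unless the same barcodes are named, STAR values below come from this larger set. The 2 matrices thus differ in barcodes as well as in counting. No barcode of a retained nucleus occurred in both libraries. All 6 myoblast markers were detected in both libraries, with Vim at 922 and 1314 UMIs and Des at 360 and 636, in the in situ polyadenylated and the standard library, whereas Epcam, Adipoq and Rbfox3, markers of other cell types, were at 0 in both. Of the other 2 such markers, Ptprc had 0 and 4 UMIs and Pecam1 10 and 35. Myod1, which defines the myoblast lineage, had 15 and 13 UMIs.

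The annotation placed 240 snoRNAs and scaRNAs inside the 10 host genes on the same strand. Snhg14 held 208 of them, Gas5 10, Snhg1 8 and Snhg12 5. Snhg3, Snhg5 and Snhg11 held 2 each, and Snhg6, Snhg8 and Snhg20 held 1 each. Entries can overlap, as for Snord80 in Gas5 and Snora16a in Snhg12, each of which is annotated as 2 overlapping genes. The sequences below are given in DNA letters, 5′ to 3′, with the C box (TGATGA) and the D box (CTGA) of box C/D snoRNAs and the ACA box of H/ACA snoRNAs in capitals. The first 3 had UMIs in in situ polyadenylated barcodes, Snora73a only in low-UMI ones, and the other 5 stand for host genes whose snoRNAs had none; these 5 were chosen after their values were seen. Coordinates are of GRCm39.
Snord87, inside Snhg6, chr1:10012688-10012774, minus strand: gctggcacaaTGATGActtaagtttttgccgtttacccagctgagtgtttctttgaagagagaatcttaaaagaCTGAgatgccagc
Snora73b, inside Snhg3, chr4:132079633-132079837, minus strand: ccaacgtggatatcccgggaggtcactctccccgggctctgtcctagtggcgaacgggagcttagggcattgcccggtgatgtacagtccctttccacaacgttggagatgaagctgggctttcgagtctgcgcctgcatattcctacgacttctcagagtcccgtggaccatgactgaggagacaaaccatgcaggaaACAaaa
Snora73a, inside Snhg3, chr4:132080086-132080290, minus strand: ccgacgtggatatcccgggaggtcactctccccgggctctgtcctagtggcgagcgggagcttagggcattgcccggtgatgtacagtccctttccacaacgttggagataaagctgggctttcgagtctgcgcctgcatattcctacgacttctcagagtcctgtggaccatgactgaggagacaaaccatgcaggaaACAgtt
Snord47, inside Gas5, chr1:160865652-160865728, plus strand: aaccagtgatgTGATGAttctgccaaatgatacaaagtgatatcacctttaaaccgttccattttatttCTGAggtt
Gm25855, inside Snhg1, chr19:8701357-8701428, plus strand: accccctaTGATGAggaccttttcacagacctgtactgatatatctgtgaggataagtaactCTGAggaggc
Snord50a, inside Snhg5, chr9:88403582-88403653, minus strand: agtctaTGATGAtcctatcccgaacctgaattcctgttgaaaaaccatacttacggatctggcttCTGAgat
Snord50b, inside Snhg5, chr9:88403850-88403921, minus strand: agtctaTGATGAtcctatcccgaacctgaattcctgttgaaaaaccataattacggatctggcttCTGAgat
Snora24, inside Snhg8, chr3:123301586-123301715, minus strand: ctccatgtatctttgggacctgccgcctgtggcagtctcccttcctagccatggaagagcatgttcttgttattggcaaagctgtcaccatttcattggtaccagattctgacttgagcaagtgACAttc
Snora73a and Snora73b, both 205 nt, differed at 7 bases. Snord50a and Snord50b, both 72 nt, differed at 1 base.

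Nearly all snoRNAs inside the host genes were at 0 UMIs while the host genes themselves were counted. In the in situ polyadenylated nuclei 2 of the 240 had a UMI in the kallisto matrix: Snord87, a box C/D snoRNA, with 22 UMIs, and Snora73b, an H/ACA snoRNA also called U17, with 10 UMIs. That is 0.833% of them, where 149 of all 1558 annotated snoRNAs and scaRNAs (9.56%) had a UMI, and 14 of the 833 without a host gene (1.68%). Without the 208 inside Snhg14, all at 0, the share was 2 of 32 (6.25%). Neither Snord87 nor Snora73b had a UMI in the standard nuclei, where 3 UMIs would stand at 2.17 CPM (UMIs of a gene per 1000000 UMIs of the retained nuclei). Set against that floor of 3 UMIs, taken per library, Snord87 stood 5.14-fold higher in the in situ polyadenylated library, at 11.1 CPM. Snora73b stood 2.33-fold higher, at 5.06 CPM. These folds leave out the counting error of the 22 and 10 UMIs. Both snoRNAs are named because they had UMIs in that library, so the direction follows from that choice. These 32 UMIs were 0.735% (95% exact interval 0.503 to 1.04) of the 4356 UMIs of all snoRNAs and scaRNAs in that library. All such genes together had 61 UMIs in the standard nuclei.

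Set beside their hosts, the snoRNAs gave 0.0574 UMIs for each host gene UMI (0.0389 to 0.0821) in the in situ polyadenylated nuclei. The detected snoRNAs were too few to be related to the levels of their hosts. Snhg6, the host of Snord87, had 4 UMIs and Snhg3, the host of Snora73b, had 28. Gas5 with 114 UMIs and Snhg1 with 212 had no UMI of any of the 18 snoRNAs inside them. Snhg8 with 10 UMIs and Snhg11 with 9 had no snoRNA UMI either. The 208 snoRNAs inside Snhg14, the transcript that spans the imprinted snoRNA clusters known from neurons, were at 0 in both libraries and both matrices. In the STAR matrix all 240 were at 0 in both libraries. That matrix counted 49687 snoRNA UMIs in its in situ polyadenylated barcodes, but of the 725 snoRNAs inside any host gene, a single entry had a UMI there, Snord118.

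A read that fits a snoRNA and an annotated transcript of its host alike can be credited to either gene by kallisto, in whole or in part. Of the 32 snoRNAs inside the 9 hosts other than Snhg14, 31 lay within an exon of at least 1 annotated host transcript, and every 31-base word of each of those 31 also occurred in a transcript of another gene, the host included. The exception, Gm25129 in an intron of Snhg11, was at 0 too. It had 103 words, none of them in a transcript of a gene other than snoRNAs and scaRNAs. Inside Snhg14, 138 of the 208 snoRNAs had no word in such a transcript. Words shared among snoRNAs were not sought. All words of Snord87, which had 22 UMIs, were shared. Positions and words came from GENCODE release M39, whereas the authors counted with M28, and the part of the annotation in these zeros was not tested. Among snoRNAs within an exon of other lncRNA hosts 10 of 43 were detected in the in situ polyadenylated nuclei, among those in introns of other lncRNA hosts 2 of 60, among those within an exon of protein-coding hosts 22 of 105, and among those in introns of protein-coding hosts 82 of 247, beside 2 of 32 within exons and 0 of 207 in introns of the 10 host genes.

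The snoRNAs that were detected made up a smaller share of the UMIs of nuclei than of barcodes of 1 to 100 UMIs, used here as a gauge of free RNA. In the in situ polyadenylated library these low-UMI barcodes had 161 UMIs of Snord87, 55 of Snora73b and 15 of Snora73a, for 231 in all. The level was 112 CPM there and 16.2 CPM in nuclei, a log2 ratio of nuclei to low-UMI barcodes of −2.79 (−3.38 to −2.26). Over all snoRNAs and scaRNAs, with 4356 UMIs in nuclei and 26542 in low-UMI barcodes, the ratio was −2.55 (−2.60 to −2.50). The values for Snord87, −2.81 (−3.53 to −2.17), and for Snora73b, −2.40 (−3.54 to −1.42), were close to each other. At these levels a UMI of either snoRNA in a nucleus cannot be told apart from free RNA in the droplet.

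The host genes together had 557 in situ polyadenylated UMIs, 0.0282% of all UMIs (0.0259 to 0.0307), and 640 UMIs in the standard nuclei, 0.0463% (0.0428 to 0.05). In CPM they stood at 282 and 463, a log2 ratio of −0.71 (−0.88 to −0.55). The 2114 protein-coding genes that had 50 or more UMIs in both libraries had a median log2 ratio of −1.19, and relative to that median the summed host genes stood at 0.48 (0.31 to 0.64). Without Snhg1 this value was 0.11 (−0.09 to 0.31), and in the STAR matrix, with all 10 genes, it was 0.12 (0.06 to 0.17). Without ribosomal RNA and mitochondrial UMIs in the total, the log2 ratio of CPM was −0.26. Snhg1, Gas5 and Snhg5 supplied 72.5% of the in situ polyadenylated host gene UMIs, and the 3 members of most UMIs 62.3% in the standard nuclei.

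At least 1 host gene UMI was seen in 298 in situ polyadenylated nuclei (22.3%) and in 413 standard nuclei (36.8%). With every nucleus thinned to 750 UMIs, which left out 0 and 3 nuclei, the shares were 13.7% (11.9 to 15.7; 183 of 1335) and 26.2% (23.6 to 28.8; 293 of 1120). These libraries hold a single cell line, so no cell type lacking the genes can serve as background, and the low-UMI barcodes are given below in its place.

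Gas5, a host of box C/D snoRNAs named for its rise in growth-arrested cells, lies at chr1:160861793-160866118 on the plus strand. It had 114 UMIs in in situ polyadenylated and 112 in standard nuclei, or 57.7 and 81 CPM. Its log2 ratio was −0.49 (−0.88 to −0.10), and 0.70 (0.32 to 1.09) relative to protein-coding genes. In the STAR matrix, with 912 and 2744 UMIs, the relative value was 0.35 (0.24 to 0.46).

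Snhg1, a host of box C/D snoRNAs at chr19:8700319-8703812 on the plus strand, had the most UMIs of the 10. It had 212 UMIs (107 CPM) in the in situ polyadenylated and 129 (93.3 CPM) in the standard nuclei. Its log2 ratio was 0.20 (−0.12 to 0.53), the only positive value of the 10, and the interval included 0. Relative to protein-coding genes it stood at 1.4 (1.07 to 1.72). STAR gave 583 and 2608 UMIs and a relative value of −0.22 (−0.35 to −0.09), so its direction turned between the matrices.

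Snhg5, which holds the Snord50a and Snord50b pair printed above, lies at chr9:88377321-88405615 on the minus strand. It had 78 UMIs (39.6 CPM) and 157 UMIs (114 CPM) in the in situ polyadenylated and standard nuclei, a log2 ratio of −1.53 (−1.93 to −1.12) and a relative value of −0.33 (−0.74 to 0.07). It was the member with the most UMIs in the standard nuclei. Of its entries in single nuclei, 8.22% and 31.2% were not whole numbers, as arises when UMIs are divided between genes. Among the other members such entries occurred only in the standard library, for Snhg11 (50% of 18 entries) and Snhg14 (30% of 20).

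Snhg6, the host of Snord87 at chr1:9926809-10014504 on the minus strand, had 4 and 3 kallisto UMIs, too few for a direction. STAR counted 83 and 267 UMIs of it, and 88.7% of its body lies opposite annotated genes, Sgk3 and Mcmdc2, on the other strand. No source used here gives whether the STAR counts used strand.

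Snhg3, the host of the H/ACA snoRNAs Snora73a and Snora73b, lies at chr4:132075325-132080997 on the minus strand, wholly within Rcc1, a gene of the same strand that codes for a chromatin-bound exchange factor of the GTPase Ran. It had 28 UMIs (14.2 CPM) and 63 UMIs (45.6 CPM), a log2 ratio of −1.68 (−2.38 to −1.02) and a relative value of −0.49 (−1.19 to 0.17). In the STAR matrix it had 32 and 30 UMIs, a relative value of 2.04 (1.27 to 2.80). Its direction relative to protein-coding genes thus turned between the matrices. All its kallisto entries in single nuclei were whole numbers, and the part of the shared locus in the turn was not tested.

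Snhg8, the host of the H/ACA snoRNA Snora24 at chr3:123301192-123302578 on the minus strand, had 10 and 25 kallisto UMIs and a relative value of −0.64 (−1.87 to 0.47). Its STAR value was 0.84 (0.52 to 1.16) from 122 and 262 UMIs. Snhg11, at chr2:158217558-158228071 on the plus strand, had 9 and 19 UMIs in kallisto and 6 and 30 in STAR, and both relative intervals included 0. Snhg12, at chr4:132035905-132038762 on the plus strand, holds both H/ACA snoRNAs and the box C/D snoRNA Snord99. It had 45 and 61 UMIs, or 22.8 and 44.1 CPM, and a relative value of 0.24 (−0.35 to 0.82).

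Snhg14, at chr7:58957672-59628040 on the minus strand, spans 670369 bases, of which exons of its canonical transcript take 734. It had 26 UMIs in the in situ polyadenylated and 31 in the standard nuclei, a relative value of 0.42 (−0.39 to 1.22). Those 26 UMIs came from 13 nuclei, and a single nucleus of 770 UMIs held 7 of them. In the standard library 31 UMIs came from 20 nuclei. Snhg20, at chr11:116966617-116969792 on the plus strand, holds a scaRNA. It had 31 and 39 UMIs, or 15.7 and 28.2 CPM, a relative value of 0.35 (−0.38 to 1.07) in kallisto and 0.25 (0.08 to 0.43) in STAR from 353 and 1138 UMIs.

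**Figure D1:**
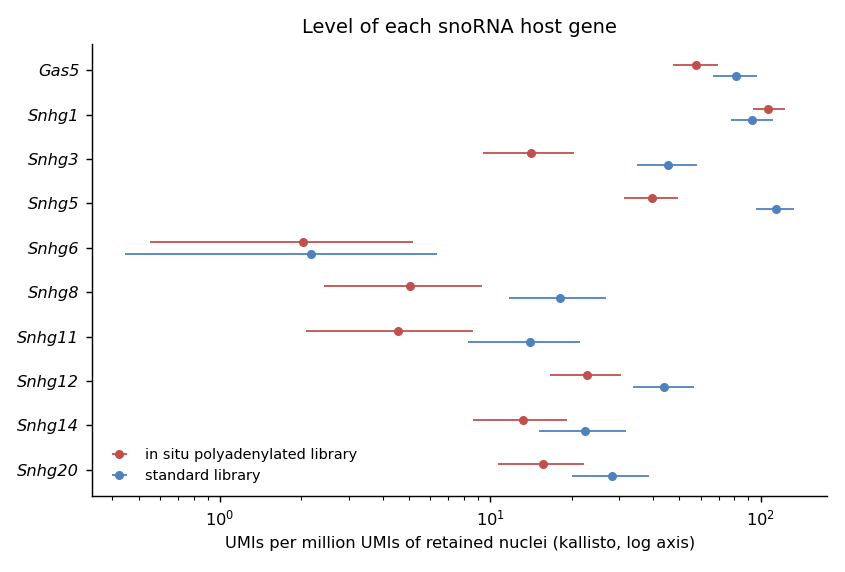
CPM of each host gene in the in situ polyadenylated (red) and standard (blue) nuclei, kallisto matrix, on a log axis; points are library values and bars 95% intervals of counting error. Snhg8 stands at 5.06 and 18.1 CPM and Snhg1 at 107 and 93.3 CPM. The levels are not set relative to protein-coding genes, whose median log2 ratio was −1.19.

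Summed over both libraries, 9 host genes reached 20 UMIs. Of these 9, 1 was over 2-fold higher in the in situ polyadenylated library relative to protein-coding genes, Snhg1, beside 3.62% of the 8423 genes with as many UMIs. No member was over 2-fold lower, beside 11.6% of those genes. The median of the 9 was 0.24, and the median over all 8423 genes was −0.21. In the STAR matrix 1 of 10 was over 2-fold higher, Snhg3, beside 21.5% of 17060 genes, and 0 were over 2-fold lower, beside 2.25%. The median of the 10 there was 0.22 and that of all genes 0.15. The member past 2-fold was thus a different gene in each matrix. In kallisto the intervals of Gas5 and Snhg1 lay above 0. In STAR those of Gas5, Snhg3, Snhg8 and Snhg20 lay above 0 and that of Snhg1 below it. How many of all genes have an interval off 0 was not counted, so these intervals do not set the members apart. Gas5 was the only member whose interval lay on the same side of 0, above it, in both matrices. With each nucleus counted once for Gas5, but the UMI totals and the protein-coding median kept, its kallisto value was −0.03.

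**Figure D2:**
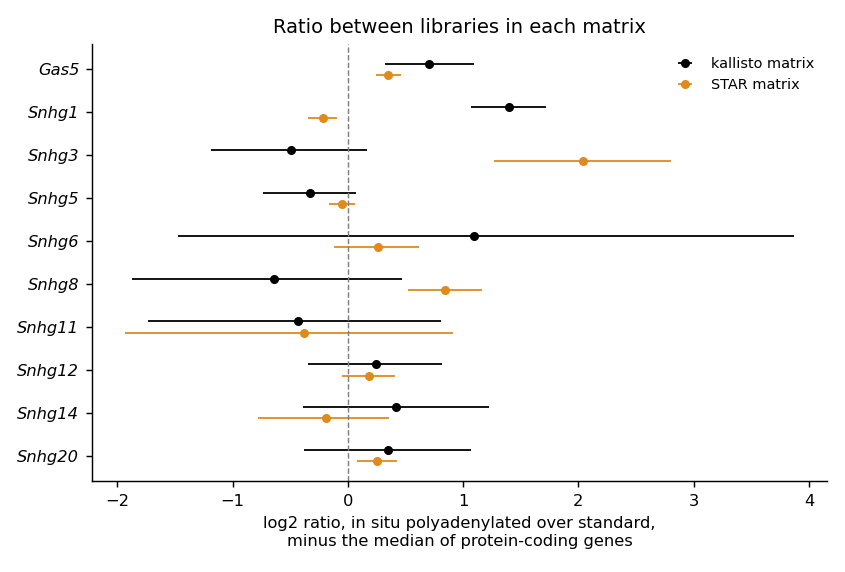
Log2 ratio of the in situ polyadenylated to the standard library for each host gene, minus the median of protein-coding genes of the same matrix, from kallisto (black) and STAR (orange). STAR values cover a larger set of barcodes than the kallisto nuclei. Bars are 95% intervals of counting error and the dashed line marks the protein-coding median. Snhg1 stands at 1.4 in kallisto and −0.22 in STAR, and Snhg3 at −0.49 and 2.04.

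Per kilobase of canonical exon the order of levels differed between the libraries. In the standard nuclei Snhg3 was highest at 137 CPM per kb, then Gas5 at 121, Snhg1 at 82.5, Snhg5 at 76.9, Snhg20 at 59.1, Snhg14 at 30.7, Snhg8 at 18.4, Snhg12 at 15.5, Snhg11 at 2.39 and Snhg6 at 0.963. Of neighbours in that order, counting error separated Gas5 from Snhg1, Snhg20 from Snhg14 and Snhg12 from Snhg11, and no other pair. In the in situ polyadenylated nuclei the order was Snhg1 at 95 CPM per kb, Gas5 at 86.3, Snhg3 at 42.7, Snhg20 at 32.9, Snhg5 at 26.7, Snhg14 at 17.9, Snhg12 at 8.02, Snhg8 at 5.16, Snhg6 at 0.899 and Snhg11 at 0.777. There Gas5 was separated from Snhg3, Snhg14 from Snhg12 and Snhg8 from Snhg6. Capture starts at an A tail, so a value per kilobase follows the choice of transcript, and Snhg12 has a canonical transcript of 1 exon that spans nearly the whole gene.

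The UMIs of Snhg1 and Gas5 in the in situ polyadenylated library sat in few nuclei. The 212 Snhg1 UMIs came from 80 nuclei, 2.65 UMIs for each nucleus that had any, with a highest value of 10. There 34 nuclei with at least 3 Snhg1 UMIs held 149 of the 212. In the standard library 129 UMIs came from 115 nuclei, 1.12 for each, and 1 nucleus had 3. For Gas5, 114 UMIs came from 63 nuclei, 1.81 for each, and 12 nuclei with at least 3 held 44 of them. In the standard library Gas5 had 1.09 for each of 103 nuclei and no nucleus reached 3. Over the 2132 protein-coding and lncRNA genes seen in 40 to 160 in situ polyadenylated nuclei, the median was 1.07 UMIs for each nucleus with any. The 95th percentile was 1.21, and genes of other classes were not included. Only 3 of those genes, Snhg1 included, were as high as Snhg1, and 14, Gas5 included, as high as Gas5.

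Outside the nuclei with at least 3 UMIs, Snhg1 had 63 UMIs in the in situ polyadenylated and 126 in the standard library. In an alternative chosen after seeing the data, each nucleus was counted once per host gene. The UMI totals and the protein-coding median were kept, so the baseline genes were not counted in this way. Snhg1 then stood at 0.16 and Gas5 at −0.03, in place of 1.4 and 0.70. STAR counted 31 Snhg1 UMIs in the same 34 nuclei where kallisto counted 149, and 27 Gas5 UMIs in the 12 nuclei where kallisto counted 44. The 34 nuclei had a median of 2083.5 UMIs and the other 1301 a median of 1078. Their snoRNA share was 0.255% of UMIs, and that of the others 0.219%. What sets these nuclei apart was not tested.

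**Figure D3:**
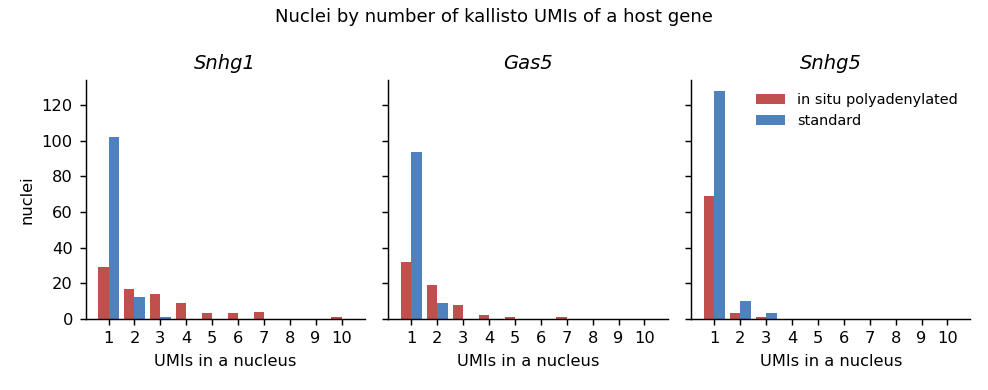
Number of nuclei (vertical axis) with 1 to 10 kallisto UMIs of Snhg1, Gas5 and Snhg5 (horizontal axis) in the in situ polyadenylated (red) and standard (blue) libraries; nuclei with none are not drawn. For Snhg1, 34 in situ polyadenylated nuclei have at least 3 UMIs and 1 standard nucleus does.

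Over the same barcodes STAR and kallisto gave the host genes unlike totals. In the in situ polyadenylated nuclei STAR counted 3.11 UMIs for each kallisto UMI of the 10 genes (1709 and 550), and in the standard nuclei 4.49 (2871 and 640). The median protein-coding or lncRNA gene with at least 20 kallisto UMIs stood at 4.44 and 5.17, and all UMIs together at 5.86 and 4.51. Snhg1 had 1.48 STAR UMIs for each kallisto UMI in the in situ polyadenylated nuclei and 5.35 in the standard nuclei. Gas5 had 4.36 and 6.48, and Snhg20 6.84 and 7.41. Snhg3 and Snhg11 were counted less by STAR than by kallisto in both libraries, at 0.5 and 0.127 for Snhg3, and at 0.222 and 0.464 for Snhg11. Snhg6, the member whose body lies mostly opposite other genes, had the highest values of the 10 at 10.5 and 22.7, from 4 and 3 kallisto UMIs.

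Most host genes took a smaller share of the UMIs of nuclei than of the low-UMI barcodes, in both libraries. The 10 genes together stood at 282 CPM in in situ polyadenylated nuclei and 529 CPM in barcodes of 1 to 100 UMIs, a log2 ratio of −0.91 (−1.06 to −0.76). In the standard library the levels were 463 and 884 CPM, a log2 ratio of −0.93 (−1.06 to −0.81). The median over members was −0.92 (9 genes with at least 20 UMIs) and −0.94 (10 genes), where the median over all genes was −0.39 and −0.21 and that over protein-coding genes −0.09 and −0.06. The lowest values were those of Snhg8 in the in situ polyadenylated library, at −2.20 (−3.35 to −1.20), and of Snhg6 in the standard library, at −2.02 (−4.40 to −0.27). Snhg3 stood at −1.52 (−1.94 to −1.13) in the standard library.

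Snhg14 was the only member above 0, at 0.67 (−0.27 to 1.64) in the in situ polyadenylated and 0.71 (−0.05 to 1.45) in the standard library, and both intervals included 0. The low-UMI range mattered. Against barcodes of over 100 to 500 UMIs, where the host genes stood at 265 and 552 CPM, the summed log2 ratio was 0.09 (in situ polyadenylated) and −0.25 (standard), and Snhg1 was at 71.4 CPM in that range and 107 CPM in nuclei of the in situ polyadenylated library. Against barcodes of 1 to 10 UMIs the summed values were −1.42 and −0.99. Which barcodes of the middle range hold nuclei was not tested.

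**Figure D4:**
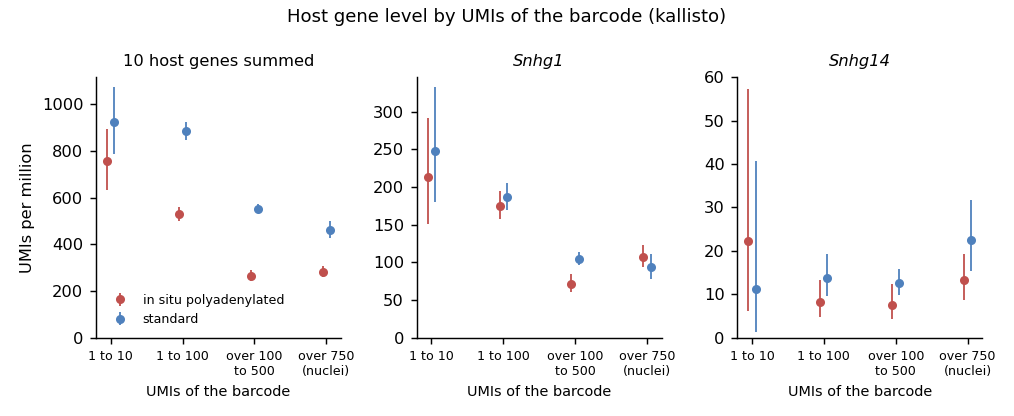
Level in CPM (vertical axis) by the UMIs of the barcode (horizontal axis; the range 1 to 10 is part of 1 to 100) for the 10 host genes together, Snhg1 and Snhg14, in the in situ polyadenylated (red) and standard (blue) libraries, with 95% intervals of counting error. The 10 genes stand at 755 CPM in the lowest range and 282 in nuclei of the in situ polyadenylated library, and at 922 and 463 in the standard library.

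Other hosts gave a range of values around those of the 10. For scale, 3.62% of all 8423 genes with at least 20 kallisto UMIs were over 2-fold higher and 11.6% lower. Of 76 other lncRNA hosts, 12 had at least 20 kallisto UMIs, with a median relative log2 ratio of 0.16; 2 were over 2-fold higher and 1 lower. The host of most UMIs among them, 1110038B12Rik, had 201 and 91 UMIs and stood at 1.82 (1.46 to 2.20), Zfas1 at 0.87 (0.43 to 1.31) and Snhg17 at −0.41 (−0.91 to 0.07). Of 283 protein-coding hosts, 192 had as many UMIs, with a median of −0.18, 6 over 2-fold higher and 13 lower, and Chd3, Eif3a and Rock2, the 3 with the most UMIs, stood at 1.04, −0.19 and −0.12. Of 12 further genes, those named Snhg besides the members together with Zfas1, Epb41l4aos and Dancr, 7 had 20 UMIs, with a median of 0.62, 1 over 2-fold higher and 1 lower; Dancr, with 68 and 11 UMIs, was at 3.31 (2.38 to 4.38). The 8 core proteins of snoRNA particles, such as Nop56, Nop58 and Dkc1, had a median of 0.07 over 7 genes, with 0 higher and 1 lower. Nop56 was at 0.20, Nop58 at 0.07 and Dkc1 at −0.07.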

How the data were processed

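Per the labels and the study's methods, the authors trimmed reads with cutadapt 3.4 and made 2 kinds of matrix on GRCm39 with GENCODE M28. The deposited kallisto 0.48.0 and bustools 0.41.0 matrices hold estimated counts of UMIs for every barcode, strand-aware, with shared UMIs divided between genes. The deposited STAR 2.7.10a matrices hold whole-number counts for 3791 and 8474 barcodes, whose selection and strand setting are not given in the sources used here. Group labels came from sample titles.

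Nuclei with over 750 UMIs and under 5% mitochondrial UMIs were summed per library (1974403 and 1382984 kallisto UMIs in the in situ polyadenylated and standard library). The mitochondrial limit removed none. Doublets were not called. Ratios of CPM carry exact conditional intervals of 2 Poisson counts, shares Clopper-Pearson intervals, and a count of 0 a floor of 3 UMIs. Relative ratios subtract the median of protein-coding genes that had 50 or more UMIs in both libraries. snoRNA hosts were found by position in GENCODE M39, where 54749 of 55414 genes matched. Sequences were read from GRCm39. Only the code for ratios and their intervals was tested on simulated data, as Poisson counts. Tools were Python 3.11.15, numpy 2.4.6, scipy 1.17.1, pandas 2.3.3 and matplotlib 3.10.9.

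All 10 members are named, along with any snoRNA inside them with at least 20 UMIs, here Snord87, and the 3 hosts of most UMIs in each other list; further names were chosen after values were seen. Members and lists were chosen with earlier results of these data known. Alternatives were the STAR matrix, other UMI minima and ranges, other barcodes and totals, and leaving out the member of most UMIs.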

Additional observations from a re-analysis of the deposited data

How the results depend on the processing

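With 1 library per treatment, no setting measures variation between libraries. No paired analysis was possible because each treatment has 1 library and the 2 share only the number 1.

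The summed log2 ratio of CPM of the host genes, −0.71, was −1.83 in the STAR matrix, −1.08 without Snhg1 and −0.26 without ribosomal RNA and mitochondrial UMIs in the total. It was −1.23 with each nucleus counted once per host gene and the UMI totals kept. It stayed below 0 in all of these. For the snoRNAs inside the host genes, the log2 ratio against the floor was 2.90, and the counting interval of 32 UMIs against 0 began at 2.52. The ratio was 1.11 at over 1500 UMIs, where fewer nuclei remained, and 3.76 at over 500 UMIs. With the kallisto counts of the barcodes of the STAR matrix it was 6.40, there a ratio of 61 UMIs to 1. The STAR matrix gave no value, since both libraries stood at 0. The mean of per-nucleus shares was not computed for these snoRNAs. snoRNA UMIs per host gene UMI rose from 0.0574 to 0.0927 without Snhg1. Nuclei against low-UMI barcodes gave −0.91 in the in situ polyadenylated library, −1.42 with barcodes of 1 to 10 UMIs and 0.09, the opposite sign, with over 100 to 500 UMIs; the cause was not tested. In the standard library −0.93 became −0.25 with over 100 to 500 UMIs. STAR UMIs per kallisto UMI were 3.51 and 5.13 over all barcodes of the STAR matrix, in place of 3.11 and 4.49.

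For single members, the log2 ratio of CPM of Snhg3 changed from −1.68 to 0.09 in the STAR matrix. Those of Gas5, Snhg1, Snhg5, Snhg12, Snhg14 and Snhg20 also left their counting intervals there. Across all alternatives for single members, 39 of 49 values stayed within the counting interval of the reported ones, but 1 alternative kept nearly the same barcodes. Among alternatives of the main results, 24 values stayed within it, 10 moved outside and 1 took the opposite sign. The median relative value, 0.24, ranged from −0.05 to 0.47 over its alternatives.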

Other observations

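In the STAR matrix the other lists stood as follows. For scale, 21.5% of all 17060 genes with at least 20 UMIs there were over 2-fold higher and 2.25% lower. Of 76 other lncRNA hosts, 45 had at least 20 UMIs, with a median relative log2 ratio of 0.41, 18 over 2-fold higher and 1 lower. Dancr had 3256 UMIs in the in situ polyadenylated and 146 in the standard library, a relative value of 6.42 (6.18 to 6.67), and 1110038B12Rik was at 3.32 (3.24 to 3.41). Of 283 protein-coding hosts, 256 passed that minimum, with a median of 0.01, 40 higher and 5 lower. Of the 12 genes named Snhg or listed with them, 10 passed, with a median of 0.08, 2 higher and 1 lower. The 8 core snoRNA particle proteins had a median of 0.05, with none past 2-fold; Nop56 stood at 0.76 (0.64 to 0.88), Nop58 at 0.02 and Dkc1 at −0.09.

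Among markers of differentiated muscle, Myh3 had 99 UMIs in the in situ polyadenylated and 77 in the standard nuclei, while Myog, Acta1 and Ckm had at most 10.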
